A study of Mus musculus with 12 samples.

Results

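The transcripts of 6 NMDA receptor subunit genes, Grin1, Grin2a, Grin2b, Grin2c, Grin2d and Grin3a, were examined in single-nucleus RNA sequencing of the mouse cortex. The genes were taken by symbol from the 55335 features of the count matrices, leaving out the TDTOMATO transcript of the injected virus, and all 6 were present. The 12 animals were mice of the C57BL/6-Myt1l em1Jdd/J line, given as strain MYT1L S710fsX in the labels and bred with C57BL/6 J mice. They were aged 21 days (P21), 6 wild type (WT) and 6 heterozygous (Het) for the MYT1L frameshift allele, which is in the germline and so present in every cell, with 3 males and 3 females of each genotype. As pups, all of them, WT included, had received AAV9 into the ventricles with the hyPB transposase and the H2b-tdT-SRT Calling Cards reporter.

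NMDA receptors are glutamate-gated cation channels of excitatory synapses that need glutamate together with glycine or D-serine to open. Each receptor holds the obligatory GluN1 subunit, the product of Grin1, together with GluN2 subunits (Grin2a to Grin2d) or GluN3 subunits (Grin3a), which set its kinetics, its block by magnesium and its calcium permeability. In the developing cortex GluN2B predominates early and GluN2A is added as synapses mature, so the ratio of Grin2a to Grin2b is used as a measure of neuronal maturity.

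The genes lie on 6 chromosomes, all on the minus strand of mm10 by the GENCODE annotation. Grin1 (ENSMUSG00000026959.13) spans chr2:25291181-25319187, Grin2a (ENSMUSG00000059003.12) chr16:9567898-9995560 and Grin2b (ENSMUSG00000030209.14) chr6:135713233-136173511. Grin2c (ENSMUSG00000020734.13) spans chr11:115249169-115267243, Grin2d (ENSMUSG00000002771.12) chr7:45831883-45878378 and Grin3a (ENSMUSG00000039579.15) chr4:49661611-49845744. The antisense gene Grin1os (chr2:25291220-25298925, plus strand) lies within Grin1, and whether the counting used strand is not given in the sources used here. Grin1os had 50 counts against 20417 of Grin1 in excitatory nuclei.

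The matrices held 78743 barcodes, of which 33126 nuclei were kept, 14351 from WT and 18775 from Het animals. The nuclei kept had at most 6000 UMIs and 3000 genes. Most barcodes left out failed these upper limits or a floor on log genes divided by log UMIs. The matrices of WT animals summed to between 23429386 and 59958572 UMIs and those of Het animals to between 36302019 and 56967218, and no barcode was shared between animals. Nuclei were clustered without the 6 subunit genes and Myt1l. Clusters were named from the UMIs of marker genes, giving 17 cell classes, each written with the ending -like, and 30 clusters stayed unnamed. There were 21071 excitatory and 8614 inhibitory nuclei, of which 6520 and 1406 belonged to unnamed clusters and count only in the totals of excitatory and inhibitory nuclei. The summed level of each class's markers was higher in it than in any other named class of the same broad group. The names came from the same markers, so this is not an independent check. For L2/3 IT the margin was narrow, 910 CPM against 690 in DG-like nuclei. The classes included DG-like, CA-like and striatal projection-like nuclei, named after the hippocampus and striatum, which the label of cortex does not name. The Immature GABA-like nuclei came from 3 clusters, all with Meis2 and Frmd7 among their 10 leading genes and none with a marker of the class there. Their share of the inhibitory nuclei ran from 3.38% to 29.5% in WT and from 1.14% to 27% in Het animals. Whether these nuclei are immature was not tested. The CA-like nuclei came from 1 cluster, also with no marker of the class among its 10 leading genes. It scored 1.54 for CA and 1.2 for L5 ET, and stayed unnamed under the stricter rule. So did a cluster with 1600 of the 2412 L4/5 IT-like nuclei. Another with 561 of the 4909 L6 CT-like nuclei, scoring 2.55 for L6 CT and 2.25 for L6b, also did. Pvalb-like and Sst-like nuclei each held such a cluster as well, of 437 and 79 nuclei. Counts were summed per animal and class, and an animal entered a class with at least 10 nuclei. Levels are given in CPM, each gene's share of the summed counts scaled as usual, as mean ± SD over animals. CPM is not corrected for gene length, so levels are compared between classes for 1 gene and not between genes. Myt1l, the mutated gene, was at 891 to 1073 CPM in excitatory nuclei of the WT animals (median 963) and 1028 to 1179 in those of the Het animals (median 1081). These counts do not separate the frameshift transcript from the intact one, so they do not check the genotype.

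Grin1, whose product is in every NMDA receptor, was detected in all 13 neuronal classes within a narrow range. It was highest in Immature GABA-like nuclei, at 427 ± 65.8 CPM (SD, n = 11 animals), and lowest among neurons in Lamp5-like nuclei, at 219 ± 45.9 CPM (SD, n = 12). L4/5 IT-like (323 ± 46.2, SD, n = 12), striatal projection-like (320.5 ± 38.8, SD, n = 12), L6 CT-like (315 ± 38.6, SD, n = 12) and L2/3 IT-like nuclei (302 ± 47.8, SD, n = 12) followed the highest class and did not differ from one another beyond the spread between animals as neighbours in the order of levels. Classes were ordered by their mean log2(CPM + 1), and each was compared with the next by an exact two-sided sign-flip permutation test over animals in log2(CPM + 1), adjusted over the 96 neighbouring pairs of the 6 genes. Of the 16 pairs for Grin1, 3 differed. The Immature GABA-like nuclei exceeded L4/5 IT-like nuclei by 0.39 on the log2 scale in 11 of 11 animals (exact permutation test, adjusted p = 0.00852). L2/3 IT-like nuclei exceeded L6 IT-like nuclei by 0.17 in 10 of 12 animals (exact permutation test, adjusted p = 0.041). Lamp5-like nuclei exceeded OPC-like nuclei, oligodendrocyte precursors, by 4.29 in 11 of 11 animals (exact permutation test, adjusted p = 0.00852). In the 4 non-neuronal classes mean Grin1 lay between 4.66 and 21.5 CPM, and every one of these classes had animals with a count of 0.

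**Figure D1:**
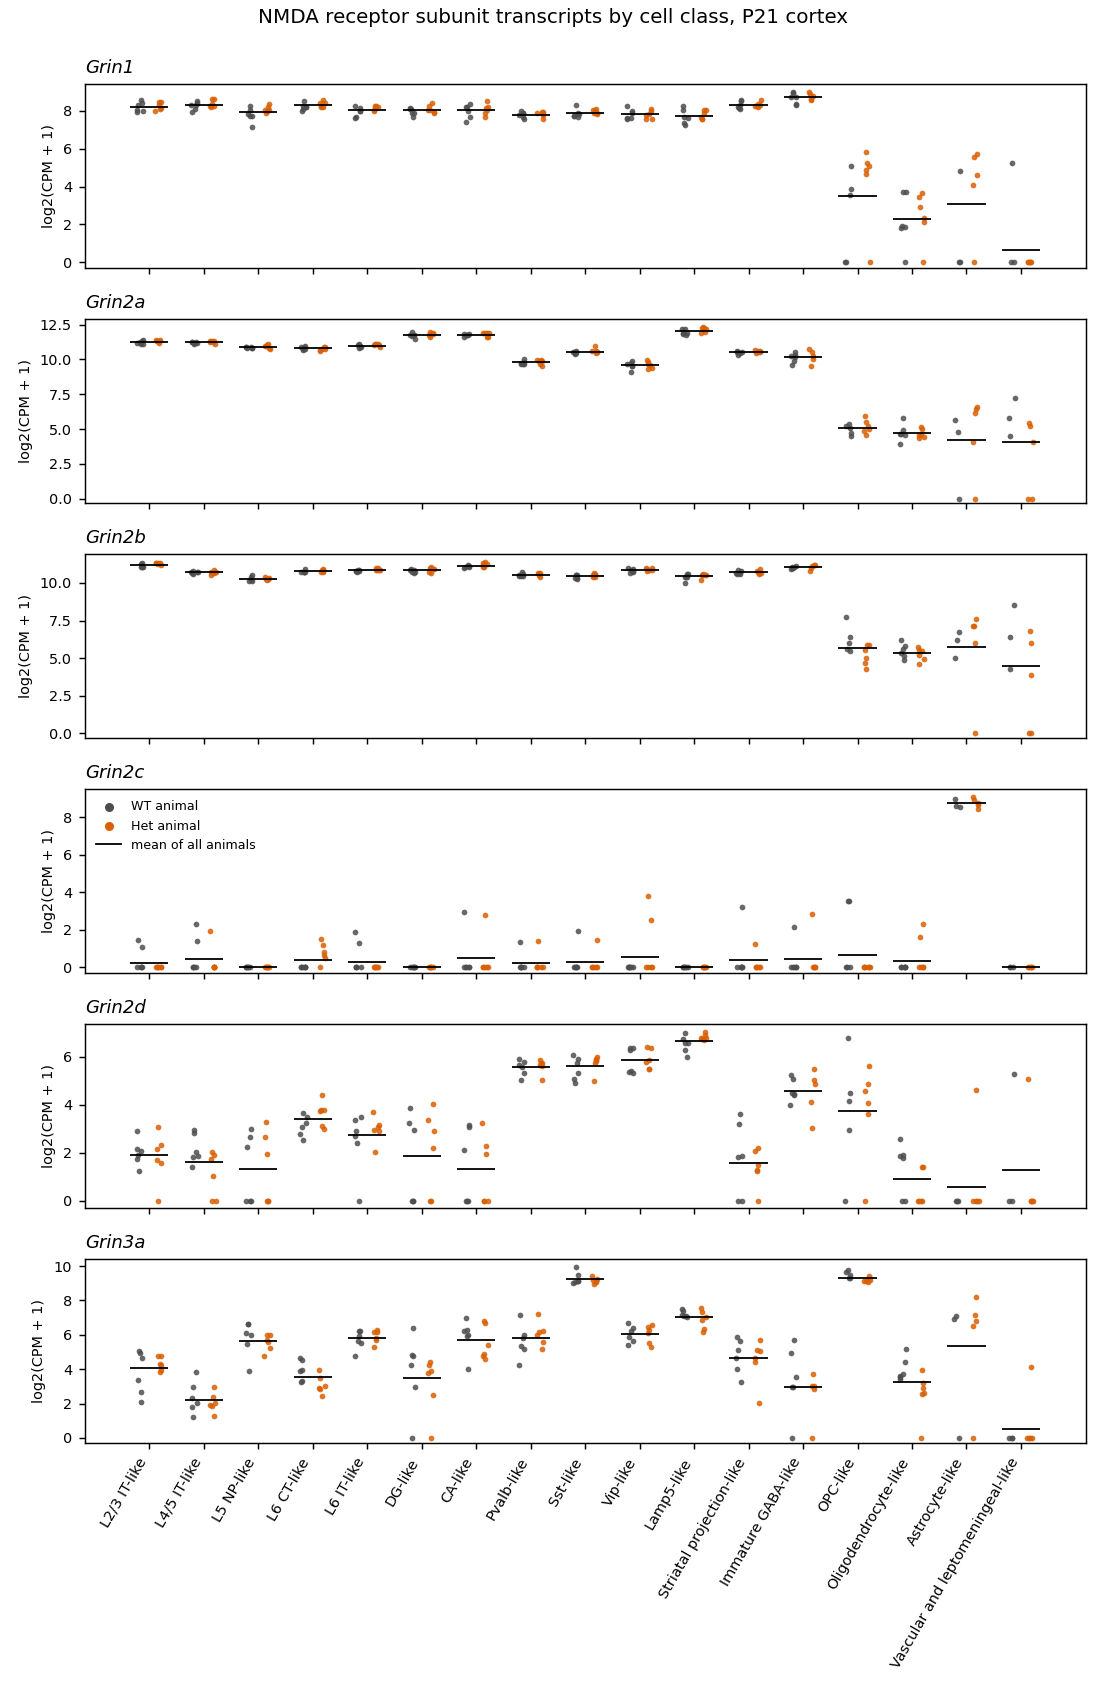
Level of each subunit gene, log2(CPM + 1) of counts summed per animal, in 17 cell classes. Each point is 1 animal with at least 10 nuclei of the class (grey WT, orange Het), and the line is the mean of all animals. Grin1, Grin2a and Grin2b lie high in the 13 neuronal classes and low in the 4 non-neuronal ones, Grin2c is high in astrocyte-like nuclei only, Grin2d in interneuron classes and Grin3a in Sst-like and OPC-like nuclei.

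Grin2a, which encodes the GluN2 subunit that rises as synapses mature, varied far more among neurons. It was highest in Lamp5-like interneurons at 4256 ± 571 CPM (SD, n = 12), where the animals ranged from 3402 to 5063. DG-like and CA-like nuclei came next, with 3510.0 ± 337 and 3503 ± 279 CPM (SD, n = 12 each). Lamp5-like nuclei exceeded DG-like nuclei by 0.27 on the log2 scale in 12 of 12 animals (exact permutation test, adjusted p = 0.00852), while DG-like and CA-like nuclei did not differ (difference 0.00, SD 0.17, adjusted p = 1, exact permutation test). Among cortical excitatory classes the order was L2/3 IT-like (2466 ± 160.1, SD, n = 12), L4/5 IT-like (2416 ± 134, SD, n = 12), L6 IT-like (2037 ± 145, SD, n = 12), L5 NP-like (1909 ± 159, SD, n = 12) and L6 CT-like nuclei (1790.0 ± 132, SD, n = 12). L4/5 IT-like nuclei exceeded L6 IT-like nuclei in 12 of 12 animals (0.25, exact permutation test, adjusted p = 0.00852), whereas L2/3 IT-like and L4/5 IT-like nuclei did not pass the test (0.03, adjusted p = 0.175, exact permutation test). The lowest neuronal levels were in Pvalb-like (894 ± 87.9, SD, n = 12) and Vip-like interneurons (781 ± 133, SD, n = 12). In all, 7 of 16 neighbouring pairs differed for Grin2a.

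Grin2b, which encodes the GluN2 subunit of young synapses, differed less between neuronal classes. L2/3 IT-like nuclei had 2382 ± 182 CPM, CA-like nuclei 2284 ± 187 (SD, n = 12 each) and Immature GABA-like nuclei 2119.8 ± 175 (SD, n = 11), and these neighbours did not pass the test (adjusted p = 0.174 and 0.163, exact permutation test). Vip-like nuclei, lowest of the neurons for Grin2a, came just after these for Grin2b with 1875 ± 139 CPM (SD, n = 12). Lamp5-like nuclei, highest for Grin2a, were next to lowest of the neurons for Grin2b with 1403 ± 168 CPM (SD, n = 12). L5 NP-like nuclei had the least among neurons, 1241 ± 99.8 CPM (SD, n = 12). Only 3 of 16 neighbouring pairs differed, and one of these was the step from L5 NP-like to astrocyte-like nuclei.

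Low levels were also seen in oligodendrocyte-like nuclei, a class in which the neuronal markers Slc17a7, Gad1 and Gad2 are not expected. Their Grin2a was 26.7 ± 10.4 CPM and their Grin2b 42.3 ± 13.4 CPM (SD, n = 12 each), which is 1.3% and 2.37% of the level in excitatory nuclei. The excitatory marker Slc17a7, the vesicular glutamate transporter, stood at 4.35% of its excitatory level in the same nuclei, and the inhibitory markers Gad1 and Gad2, which make GABA, at 1.65% and 0.825% of their inhibitory level. Grin1 stood at 1.96% of its excitatory level. Relative to inhibitory nuclei, Grin1, Grin2a and Grin2b stood at 2.12%, 1.87% and 2.72%, Grin2d at 3.09% and Grin3a at 6.9%. Grin1, Grin2a and Grin2b thus lay below Slc17a7 when set against excitatory nuclei and above Gad1 and Gad2 when set against inhibitory nuclei. Set against excitatory nuclei, where they are low, Grin2d stood at 21.7% and Grin3a at 45.9%, and the part of free RNA in these levels was not tested.

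The ratio of Grin2a to Grin2b counts within a library needs no normalization. It does not compare the amounts of the genes, whose lengths differ, so it was set against other classes and animals only. The mean log2 ratio was highest in Lamp5-like nuclei at 1.60 ± 0.21 (SD, n = 12), with animals from 1.35 to 2.10. DG-like nuclei followed at 0.92 ± 0.13, then L5 NP-like at 0.62 ± 0.17, CA-like at 0.62 ± 0.07 and L4/5 IT-like nuclei at 0.53 ± 0.12 (SD, n = 12 each). L6 IT-like, Sst-like, L2/3 IT-like and L6 CT-like nuclei lay close to 0, between 0.13 and 0.01. Striatal projection-like nuclei were at -0.19 ± 0.10, Pvalb-like at -0.75 ± 0.10 and Vip-like nuclei at -1.28 ± 0.30 (SD, n = 12 each), and Immature GABA-like nuclei at -0.87 ± 0.39 (SD, n = 11). From Vip-like to Lamp5-like interneurons the count ratio rose from 0.413 to 3.03.

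Of the 16 neighbouring pairs in the order of ratios, 4 differed by the exact sign-flip test adjusted over the 16. These were Lamp5-like over DG-like (0.68, 12 of 12 animals, adjusted p = 0.00391), DG-like over L5 NP-like (0.30, 11 of 12, adjusted p = 0.00781), L4/5 IT-like over L6 IT-like (0.40, 12 of 12, adjusted p = 0.00391) and L6 CT-like over striatal projection-like nuclei (0.19, 11 of 12, adjusted p = 0.00521; exact permutation tests). Over all nuclei, the log2 ratio was 0.32 higher in excitatory than in inhibitory nuclei (SD of the difference 0.14), in 12 of 12 animals (exact permutation test, p = 0.000488, the smallest that 12 animals allow). In the 4 non-neuronal classes 10 to 113 counts of Grin2a stood behind the ratio, too few to read an order there, although these classes took part in the 16 neighbouring pairs and, where both genotypes had 3 animals, in the genotype tests.

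**Figure D2:**
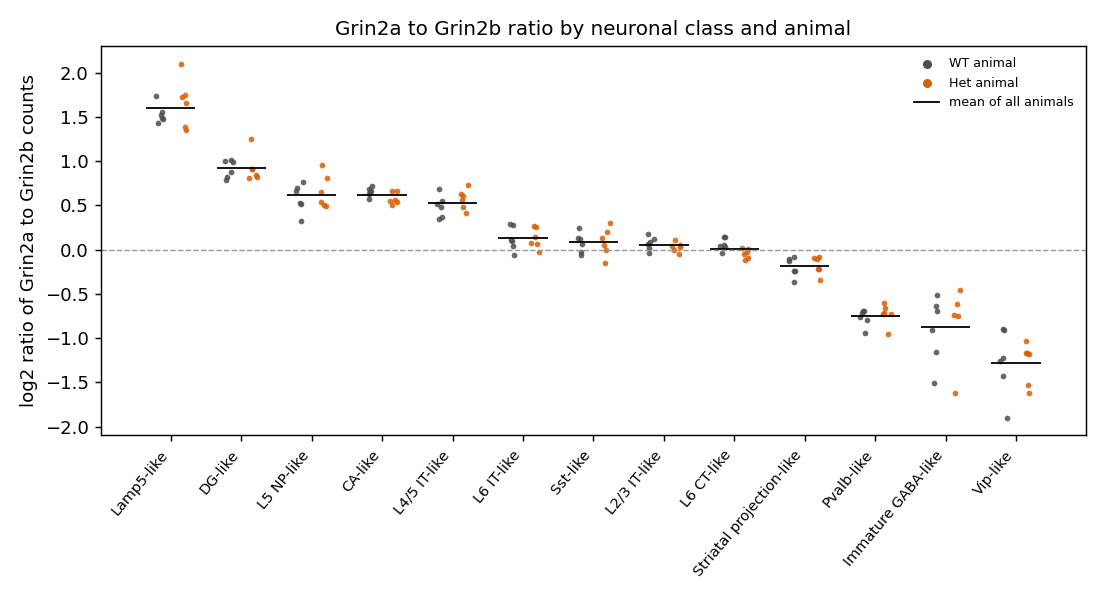
Log2 ratio of Grin2a to Grin2b counts (0.5 added to each) in the 13 neuronal classes, in order of the mean. Each point is 1 animal (grey WT, orange Het), the line is the mean of all animals and the dashed line marks equal counts. Lamp5-like nuclei lie highest (mean 1.60) and Vip-like nuclei lowest (mean -1.28), with WT and Het animals overlapping in every class.

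Grin2c, whose subunit is known from astrocytes and from the cerebellum, was almost confined to astrocyte-like nuclei, where it reached 434 ± 66.2 CPM (SD, n = 8 animals, 149 counts). The 8 animals lay between 348 and 536 CPM. OPC-like nuclei, next in the order, had 2 counts in all, and the difference was 7.86 on the log2(CPM + 1) scale in 8 of 8 animals (exact permutation test, adjusted p = 0.0417). In DG-like, L5 NP-like and Lamp5-like nuclei no count was seen in any animal, which allows up to 1.09, 1 and 1.25 CPM (3 counts over all animals of the class, counting error only). Inhibitory nuclei as a whole had 1.9 ± 1.44 CPM and excitatory nuclei 0.579 ± 0.544 (SD, n = 12 each), and oligodendrocyte-like nuclei 0.503 ± 1.25 CPM (SD, n = 12).

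Grin2d, which encodes a slowly deactivating subunit known from interneurons, was highest in Lamp5-like nuclei at 101 ± 18.7 CPM (SD, n = 12). Vip-like (59.9 ± 19, SD, n = 12), Sst-like (49.4 ± 13.3, SD, n = 12) and Pvalb-like nuclei (47.3 ± 8.99, SD, n = 12) followed. Lamp5-like exceeded Vip-like nuclei by 0.79 on the log2 scale in 10 of 12 animals (exact permutation test, adjusted p = 0.0273), and the 3 classes after Lamp5-like did not differ as neighbours. Pvalb-like nuclei exceeded Immature GABA-like nuclei (24.9 ± 10.8, SD, n = 11) by 1.06 in 11 of 11 animals (exact permutation test, adjusted p = 0.00852). Striatal projection-like nuclei, also GABAergic, had 3 ± 3.42 CPM (SD, n = 12). Among excitatory classes, L6 CT-like nuclei were highest with 10.1 ± 4.15 CPM (SD, n = 12), and the step down to L6 IT-like nuclei did not pass the test (0.66, adjusted p = 0.12, exact permutation test).

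Grin3a, whose GluN3A subunit makes receptors with low calcium permeability and is known from young neurons, was high in a glial and in a neuronal class. OPC-like nuclei held 650 ± 107 CPM (SD, n = 11) and Sst-like interneurons 610 ± 127 (SD, n = 12), and these neighbours did not differ (0.09, SD 0.26, adjusted p = 0.704, exact permutation test). Sst-like nuclei exceeded Lamp5-like nuclei (136 ± 35.1, SD, n = 12) by 2.19 on the log2 scale in 12 of 12 animals (exact permutation test, adjusted p = 0.00852). Lamp5-like nuclei in turn exceeded Vip-like nuclei (68.2 ± 22, SD, n = 12) by 1.00 in 11 of 12 animals (exact permutation test, adjusted p = 0.00852). Pvalb-like, L6 IT-like, CA-like and L5 NP-like nuclei had means from 55.6 to 65.6 CPM and did not differ as neighbours. The lowest neuronal level was in L4/5 IT-like nuclei at 4.33 ± 3.38 CPM (SD, n = 12), below the 11.6 ± 9.23 CPM of oligodendrocyte-like nuclei (SD, n = 12).

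Set against each other as wholes, excitatory nuclei had more Grin2a than inhibitory nuclei (2052 ± 113 against 1432 ± 124 CPM, SD, n = 12), more Grin2b (1788 ± 90.8 against 1556 ± 105, SD, n = 12) and slightly more Grin1 (286 ± 35.1 against 264 ± 34, SD, n = 12). The log2 differences were 0.52, 0.20 and 0.11, seen in 12, 12 and 10 of 12 animals (exact sign-flip permutation test adjusted over the 6 genes, p = 0.000732, 0.000732 and 0.0137). Grin2d was 2.63 and Grin3a 2.71 lower in excitatory nuclei on this scale, in 12 of 12 animals each (exact permutation test, adjusted p = 0.000732). Grin2c was 0.79 lower in excitatory nuclei in 11 of 12 animals (exact permutation test, adjusted p = 0.00293), from 45 and 56 counts in all.

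The genes whose level over the 17 classes was most like that of each subunit were listed by the Pearson correlation of log2(mean CPM + 1), among 10483 genes reaching 20 CPM in a class. The classes come from the same 12 libraries, so the values are a description without a test. For Grin1 they were Unc13a, a synaptic vesicle priming factor (r = 0.986), Gm44677 (0.981) and Psd (0.977). For Grin2a they were Rbfox3, the neuronal nuclear antigen NeuN (0.977), Syt1, a calcium sensor of vesicle release (0.969), and 5330417C22Rik (0.965). For Grin2b they were Slc12a5, the chloride exporter of mature neurons (0.982), Psd (0.979) and 5330417C22Rik (0.978). For Grin2c they were the astrocyte filament gene Gfap (0.977), Ccdc190 (0.975) and Eva1a (0.975), all highest in astrocyte-like nuclei. Grin2d was most like Vwc2 (0.918), Kcnmb2, a subunit of the BK potassium channel (0.916), and Minar1 (0.901). Grin3a was most like Snx25 (0.846), Ugdh (0.842) and Ppp6r2 (0.831), which were all highest in OPC-like nuclei. Among the subunits themselves Grin1, Grin2a and Grin2b ran together over the classes (r = 0.938 to 0.97), which largely separates neurons from other cells, while Grin2c ran against Grin2a (r = -0.453) and Grin3a had no linear relation to Grin2a (r = -0.01).

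The question of the genotype comparison was whether 1 intact copy of MYT1L changes the subunit transcripts at P21. None of the 6 genes was called in any class. By edgeR's quasi-likelihood test, a call needed a p under 0.05 after Benjamini-Hochberg adjustment together with a log2 change of more than 0.2 in either direction. Of the 56 pairs of gene and class that passed the low-count filter, 0 were called, where 0.13% of all tests of genes in the 17 classes were. At an unadjusted p under 0.05 there were 4 such pairs of 56, where 6.84% of all tests were. That is 7.14% of the pairs, near the share of all genes. Without the low-count filter 13 of 98 pairs (13.3%) had an unadjusted p under 0.05, where 4.8% of all tests did, and 1 was called. DESeq2 called 0, but gave an adjusted p for only 84 of its 98 pairs, and 3 of the 98 (3.06%) had an unadjusted p under 0.05, where 1.23% of its tests over all genes did. Both of these shares over all genes include many genes with few counts. Over all excitatory and over all inhibitory nuclei 5 subunits each passed the filter and 0 were called, against 0.164% and 0.228% of all genes, and 0 of the 10 had an unadjusted p under 0.05, against 7.87% and 6.38%. The filter let a gene pass only in classes with enough of its counts, so Grin2c was tested in astrocyte-like nuclei alone, Grin2d in 4 classes and Grin3a in 11. The labels do not say which animals shared a litter. In sums of nuclei, less RNA of a gene per nucleus and fewer nuclei expressing it cannot be told apart.

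Grin1 in excitatory nuclei was at 220.3 to 319 CPM in WT (median 274) and 272 to 337 in Het animals (median 292), and the groups overlapped. The log2 fold change was 0.13 (standard error 0.07, 95% interval -0.02 to 0.27, edgeR adjusted p = 0.732). In inhibitory nuclei it was at 216 to 352 CPM in WT (median 256) and 252 to 280.0 in Het (median 269), a log2 fold change of 0.04 (interval -0.15 to 0.22, edgeR adjusted p = 1). The highest WT value was that of WT male 2, without which the change was 0.13 (edgeR adjusted p = 0.639). The smallest unadjusted p for Grin1 was in L6 IT-like nuclei, with 194 to 302 CPM in WT (median 254) and 252 to 310.0 in Het animals (median 293). There 5 of 6 Het animals lay above the WT median, but the change of 0.22 (standard error 0.10) did not pass (edgeR unadjusted p = 0.0318, adjusted p = 0.571), and 7.98% of all genes in this class had an unadjusted p under 0.05. Over the 13 classes tested the log2 fold change of Grin1 ran from -0.03 to 0.26 and was below 0 in 2. WT male 3 and WT male 1 were the lowest animals in L6 IT-like nuclei, at 194 and 207 CPM. They were also the lowest in all excitatory nuclei, at 240 and 220.3 CPM.

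Over all excitatory and over all inhibitory nuclei, Grin2a and Grin2b had the most counts and the narrowest intervals of the subunits. In excitatory nuclei Grin2a was at 1879.8 to 2153 CPM in WT (median 2013) and 1878 to 2207 in Het (median 2127), and Grin2b at 1678 to 1941 in WT (median 1716) and 1722 to 1921 in Het (median 1836). Their log2 fold changes were 0.04 (95% interval -0.07 to 0.15, edgeR adjusted p = 0.915) and 0.03 (interval -0.07 to 0.14, edgeR adjusted p = 0.932). In inhibitory nuclei Grin2a was at 1208 to 1477 CPM in WT (median 1384) and 1391 to 1675 in Het (median 1440.0). All 6 Het animals lay above the WT median while the groups overlapped, and the change was 0.12 (interval -0.04 to 0.28, edgeR adjusted p = 0.903). Grin2b in inhibitory nuclei changed by 0.05 (interval -0.10 to 0.20, edgeR adjusted p = 0.989). By class, the estimates for Grin2a ran from -0.08 to 0.18 in 13 classes and for Grin2b from -0.18 to 0.12 in 14.

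**Figure D3:**
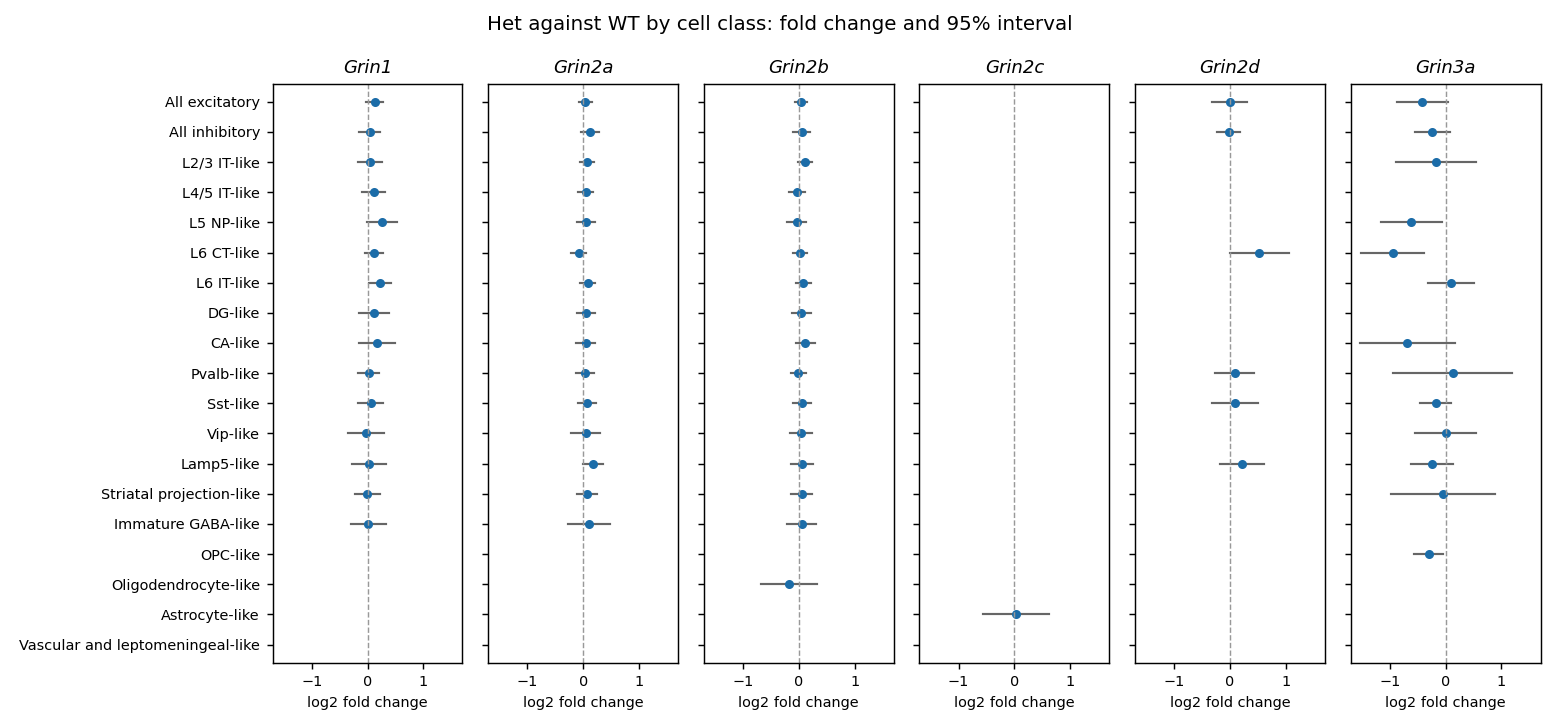
Log2 fold change of each subunit gene in Het against WT (edgeR, points) with its 95% interval (lines), in all excitatory and all inhibitory nuclei and in each of the 17 classes. A gene is shown where it passed the low-count filter. In all excitatory and all inhibitory nuclei the Grin3a intervals are the widest, and in L6 CT-like nuclei Grin3a is at -0.95 with an interval of -1.51 to -0.38.

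No difference between genotypes was found in the Grin2a to Grin2b ratio, the measure of maturity, pooled over all excitatory nuclei. The pool mixes classes with mean log2 ratios from 0.01 (L6 CT-like) to 0.92 (DG-like). The part of its make-up in the pooled ratio was not tested. The log2 ratio was 0.20 ± 0.06 in WT and 0.20 ± 0.09 in Het animals (SD, n = 6 each), a difference of 0.00411 (exact two-sided permutation test over the 924 relabellings, p = 0.926), with a 95% interval of -0.09 to 0.095 from inverting the same test. In inhibitory nuclei it was -0.16 ± 0.14 in WT and -0.09 ± 0.04 in Het (SD, n = 6 each), a difference of 0.07 (exact permutation test, p = 0.29, interval -0.03 to 0.2). Without WT male 2, the lowest animal, this difference was 0.0136 (exact permutation test, p = 0.589), and without the upper limits on nuclei 0.00972 (p = 0.794). It was 0.095 without doublet removal (exact permutation test, p = 0.0368, unadjusted) and 0.108 with stricter classes (p = 0.0541, unadjusted). The part of the make-up by class in the inhibitory ratio was not tested. Of the 15 classes tested, 0 passed after adjustment. The smallest p was in L6 CT-like nuclei, where WT animals averaged 0.06 ± 0.07 and Het animals -0.04 ± 0.06 (SD, n = 6 each). The difference of -0.11 had an unadjusted p = 0.0173 and an adjusted p = 0.26 (exact permutation test), with an interval of -0.185 to -0.025. The ratio in L6 CT-like nuclei was highest in WT male 2 at 0.14 and lowest in Het female 3 at -0.12, and the groups overlapped. The difference was -0.0635 without the upper limits on nuclei (exact permutation test, p = 0.299) and -0.0481 with stricter classes (p = 0.279). It was -0.109 without doublet removal (exact permutation test, unadjusted p = 0.00433) and ran from -0.125 to -0.0895 with 1 animal left out (exact permutation test, unadjusted p from 0.00433 to 0.0368).

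Grin2c in astrocyte-like nuclei was at 379, 387 and 505 CPM in the 3 WT animals with enough nuclei and from 348 to 536 CPM in the 5 Het animals (median 427). The log2 fold change was 0.03 with a wide interval of -0.56 to 0.62 (edgeR adjusted p = 0.978), from 149 counts in 8 animals. Grin2d in inhibitory nuclei was at 37 to 52.9 CPM in WT (median 42.5) and 37.2 to 47.5 in Het animals (median 44.2). Its log2 fold change was -0.02 (interval -0.23 to 0.18, edgeR adjusted p = 1), and its sign turned under other settings. In excitatory nuclei Grin2d changed by -0.002 (interval -0.32 to 0.31, edgeR adjusted p = 0.999), and its sign turned as well. By class the 4 estimates for Grin2d were all above 0, from 0.09 in Pvalb-like and Sst-like nuclei to 0.22 in Lamp5-like (interval -0.17 to 0.61) and 0.53 in L6 CT-like nuclei (interval -0.01 to 1.06, edgeR unadjusted p = 0.0529, adjusted p = 0.524). In L6 CT-like nuclei Grin2d was at 4.77 to 11.6 CPM in WT (median 7.95) and 6.91 to 20 in Het animals (median 12.5), and the groups overlapped.

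Grin3a was the only subunit with an estimate below 0 in most of its classes, 9 of 11, where 50.4% of all tests of genes in the 17 classes had an estimate below 0. The 9 include -0.0014 in Vip-like and -0.05 in striatal projection-like nuclei. They also include classes where the Het median lay above the WT median, with 4 of 6 Het animals above it. These were Sst-like (569 against 557 CPM), L2/3 IT-like (18.4 against 16.5) and Vip-like nuclei (72.4 against 65.7). In the rest of the 9 the Het median lay below the WT median. Other subunits leaned the other way, with estimates below 0 in 1 of 13 classes for Grin2a, 2 of 13 for Grin1, 4 of 14 for Grin2b and 0 of 4 for Grin2d. The classes come from the same 12 animals and are not independent, and none passed after adjustment. In L6 CT-like nuclei Grin3a was at 8.59 to 24 CPM in WT (median 14.1) and 4.43 to 14.3 in Het animals (median 6.83). Here 5 of 6 Het animals lay below the WT median, and the highest Het animal, at 14.3, lay just above it. The log2 fold change was -0.95 (standard error 0.28, 95% interval -1.51 to -0.38, edgeR unadjusted p = 0.00174, adjusted p = 0.119), from 184 counts in 12 animals. In this class 9.71% of all genes had an unadjusted p under 0.05. Without the low-count filter the same test called it (-0.91, edgeR adjusted p = 0.0293), and so it did without the removal of nuclei by doublet score (-1.27, edgeR adjusted p = 0.0267). Over the fits that left out 1 animal each the edgeR adjusted p ran from 0.0521 to 0.401. The highest animals in L6 CT-like nuclei were WT male 3 at 24 and WT male 1 at 22.2 CPM. They were also the highest in L5 NP-like nuclei, at 97.5 and 97.2, and in all excitatory nuclei, at 42 and 36.3. In OPC-like nuclei WT male 3 was the lowest WT animal, at 619. No fit left out both.

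In L5 NP-like nuclei Grin3a was at 13.9 to 97.5 CPM in WT (median 65.5) and 26.1 to 61.3 in Het animals (median 48.8), with a log2 fold change of -0.61 (standard error 0.27, edgeR unadjusted p = 0.0293, adjusted p = 0.631). In OPC-like nuclei, where the gene is high, it was at 619 to 867 CPM in 5 WT animals (median 701) and 534 to 671 in 6 Het animals (median 573), with a log2 fold change of -0.30 (standard error 0.13, edgeR unadjusted p = 0.0247, adjusted p = 0.994). An unadjusted p under 0.05 was seen for 6.96% of all genes in L5 NP-like and 4.84% in OPC-like nuclei. In Sst-like nuclei, the other class with high Grin3a, the change was -0.18 (interval -0.45 to 0.10, edgeR adjusted p = 0.976). There Grin3a was at 523 to 964 CPM in WT (median 557) and 503 to 684 in Het animals (median 569). In this class 4 of 6 Het animals lay above the WT median. The highest animals were WT male 1 at 964 and WT male 3 at 704 CPM. All 6 Het animals lay below the WT median in L5 NP-like and in OPC-like nuclei, with overlapping groups in both. Over all excitatory nuclei Grin3a changed by -0.42 (interval -0.87 to 0.03, edgeR adjusted p = 0.689) and over all inhibitory nuclei by -0.24 (interval -0.55 to 0.07, edgeR adjusted p = 0.899). The make-up of the inhibitory nuclei differed in its medians between genotypes, with overlapping animals. Sst-like nuclei, high in Grin3a, were 11.9% to 19.5% of them in WT (median 17.7%) and 11% to 15.8% in Het animals (median 14.7%). Striatal projection-like nuclei, low in Grin3a, were 11% to 23.3% in WT (median 13.6%) and 13.3% to 26.6% in Het animals (median 25.3%). Pvalb-like and Immature GABA-like nuclei, also low in Grin3a at 65.6 and 12.5 CPM, had lower medians in Het animals. These were 24.7% and 10.4% in WT and 20.5% and 6.7% in Het. Vip-like and Lamp5-like nuclei had medians of 7.51% and 7.95% in WT and 7.3% and 7.91% in Het. The part of this make-up in the values of pooled inhibitory nuclei was not tested.

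Because Grin3a is high in Sst-like and OPC-like nuclei, markers of other classes were measured beside it. In L6 CT-like nuclei the summed level of the 5 Sst markers was 0 to 5.82 CPM in WT (median 4.32) and 1.11 to 5.25 in Het animals (median 2.89), and 2 of the 5 were at 0 in Het and none in WT. The 5 OPC markers stood at 106 to 232 CPM in WT (median 173) and 167 to 223 in Het animals (median 198). The inhibitory markers stood at 6.68 to 18 CPM in WT (median 8.67) and 3.22 to 9.76 in Het (median 8.1), and the 8 oligodendrocyte markers at 10.5 to 56.8 in WT (median 36.3) and 18.1 to 35.5 in Het (median 24.5). In L5 NP-like nuclei the Sst markers stood at 17.6 to 46 CPM in WT (median 39.6) and 23.2 to 53.4 in Het (median 31.5), the OPC markers at 83.3 to 153 (median 116) and 56.9 to 189 (median 143), and the oligodendrocyte markers at 6.94 to 87 (median 30.1) and 11.1 to 44.6 (median 26). Grin3a itself averaged 11.7 CPM in L6 CT-like nuclei, close to the 11.6 CPM of oligodendrocyte-like nuclei. In the latter it was at 9.7 to 35.8 CPM in WT (median 11.8) and 0 to 14.5 in Het animals (median 5.84), with 5 of 6 Het animals below the WT median. These values rest on 41 counts in all, 0 to 5 per animal. The oligodendrocyte-like class also held a cluster of 242 nuclei that scored 2.2 for its own markers and 1.53 for OPC. In OPC-like nuclei the inhibitory markers stood at 75.1 to 253 CPM in WT (median 95.4) and 22.9 to 102 in Het (median 69.3), the excitatory markers at 20.1 to 72.3 (median 41.7) and 9.24 to 48.2 (median 32.5), and the Sst markers at 26.8 to 42.4 (median 33.4) and 15.7 to 51.5 (median 30.6). The OPC markers went the other way in their medians, with 9180.3 to 12991 (median 10440.1) in WT and 9984 to 11862 (median 11393) in Het, as did the oligodendrocyte markers, with 403 to 1036 (median 617) and 602 to 916 (median 742). Of the 7 gene entries counted for the inhibitory markers there, 2 were at 0 in WT and 4 in Het. The part of these levels in the Grin3a values was not tested.

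**Figure D4:**
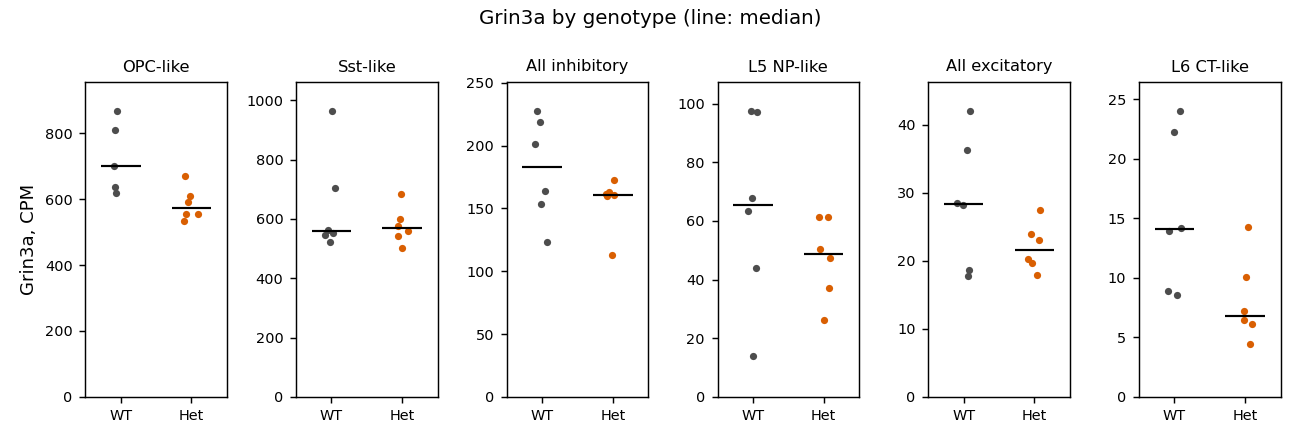
Grin3a in CPM per animal (points, grey WT and orange Het) with the median of each genotype (line), each panel with its own axis from 0. In OPC-like, L5 NP-like and L6 CT-like nuclei the Het medians of 573, 48.8 and 6.83 CPM lie below the WT medians of 701, 65.5 and 14.1, and the groups overlap in every panel.

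The sex by genotype interaction tested whether the Het effect differed between males and females. No subunit passed in any of the 56 pairs of gene and class, where 0.0153% of all tests of genes in the 17 classes passed. At an unadjusted p under 0.05 there was 1 pair, where 5.06% of all tests were, and DESeq2 likewise called 0. The pair was Grin3a in Sst-like nuclei, with an interaction of -0.58 on the log2 scale (standard error 0.22, edgeR unadjusted p = 0.012, adjusted p = 0.837). WT males were at 964 (male 1), 523 (male 2) and 704 CPM (male 3), and WT females at 546 to 563. Het males were at 503 to 577 and Het females at 561 to 684 CPM. Over all excitatory nuclei Grin2a had an interaction of -0.25 (standard error 0.10, edgeR unadjusted p = 0.024, adjusted p = 0.787). It was the only one of 10 pairs in the pooled nuclei at an unadjusted p under 0.05, where 6.06% of all genes in excitatory and 3.72% in inhibitory nuclei were.

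Other genes of the receptor's pathway were followed in lists of 58 genes, of which 50 passed the filter in at least 1 class. They were chosen with earlier results of these data known. Of the 545 tests of these genes in the 17 classes, 1 was called, where 0.13% of all tests of genes in the 17 classes were. At an unadjusted p under 0.05 there were 47 (8.62%, against 6.84% of all tests), with 34 estimates above 0 and 13 below 0. Of all tests at any p, 50.4% had an estimate below 0, and their split at this threshold is not given here. The called gene was Ephb2 (ENSMUSG00000028664.14), a receptor tyrosine kinase that binds ephrins and clusters NMDA receptors, in L6 CT-like nuclei, where 0.693% of all genes tested were called. Ephb2 was at 97.8 to 151 CPM in WT (median 114) and 141 to 174 in Het animals (median 164), and all 6 Het animals lay above the WT median, with the groups overlapping. It rose by a log2 fold change of 0.40 (standard error 0.09, edgeR adjusted p = 0.0397), and DESeq2 called it as well. The call was lost when WT male 1, WT male 3, WT female 2, WT female 3, Het male 1, Het male 3, Het female 1 or Het female 3 was left out (edgeR adjusted p from 0.0692 to 0.156) and with a replicate block (edgeR adjusted p = 0.0536). Under that block Neto1, an auxiliary protein of glutamate receptors in the same list, was called instead in L6 CT-like nuclei (-0.32, edgeR adjusted p = 0.0492). Neto1 was called there without the low-count filter as well (-0.31, edgeR adjusted p = 0.00482). In the reported L6 CT-like fit Lin7a, a scaffold gene of the same list, had a log2 fold change of -0.41 (edgeR adjusted p = 0.0646). Lin7a was called when WT male 2, WT female 1 or Het female 2 was left out (edgeR adjusted p from 0.0384 to 0.0499).

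By list, the 20 anchoring and scaffold genes, such as Dlg4 and Shank3, which hold the receptor at the synapse, gave 243 tests with 1 called and a median log2 fold change of 0.06. The 20 genes that signal at the receptor, such as the kinase Camk2a, gave 224 tests with 0 called and a median of 0.03. Of the 10 genes of co-agonist supply, such as Srr, which makes D-serine, 5 were tested, in 23 tests with 0 called and a median of -0.05. Of the 6 regulators of the subunit switch, such as Rest, 4 were tested, in 54 tests with 0 called and a median of -0.07. The list of other subunits and receptor-associated genes, Grin3b and Grina, gave 1 test with 0 called, at -0.29. The median over all tests of genes in the 17 classes was -0.00153. At an unadjusted p under 0.05 the lists had 31, 12, 1, 3 and 0 tests in the same order. For the first 4 lists these were 12.8%, 5.36%, 4.35% and 5.56% of their tests, beside 6.84% of all tests. The tests of a list repeat its genes over classes of the same animals, and the lists were chosen with earlier results known. The shares are therefore a description and not a test of enrichment.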

How the data were processed

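Cortices of 12 mice were profiled by single-nucleus RNA sequencing with the Scale Biosciences kit. All libraries of this age were made in parallel on the same plates. Per the study's methods, nuclei were isolated on an iodixanol gradient and fixed, and reads were mapped to mm10 and counted with ScaleRna. Seurat 4.3.0 and DESeq2 1.38.3 stand in the submitters' processing notes. The values deposited by the authors are estimated counts of UMIs per gene and nucleus, not normalized, 92.3% of the entries above 0 being whole. The study's methods removed ambient barcodes with CellFinder and multiplets with DoubletFinder. Whether the deposited matrices precede the removal of multiplets, and the annotation, are not given in the sources used here.

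The study's limits were applied to the matrices, namely 300 to 3000 genes and 800 to 6000 UMIs, a mitochondrial share up to 1%, and log genes divided by log UMIs no lower than 0.9. This left 34862 of the 78743 barcodes (44.3%). Without the upper limits and the limit on the log ratio, 74793 nuclei stayed after doublet removal, so these limits took most of the barcodes lost. The values thus describe nuclei with at most 6000 UMIs and 3000 genes. The part within the limits differed by animal, for example 2116 of 6478 barcodes in Het male 1 and 4644 of 7301 in Het male 2. The study reports more P21 nuclei than the matrices hold barcodes, so the nuclei kept here are not its set. The 5% of nuclei with the highest Scrublet score per animal were removed (1736), leaving 1552 to 3183 nuclei per WT and 2011 to 4412 per Het animal. Clusters were made with scanpy 1.11.5 and leidenalg 0.10.2, without the subunit genes and Myt1l, and named from fixed marker lists. The scoring rule for names was set after marker UMIs were seen and before any subunit or genotype value was. Counts were summed per animal and class and rounded.

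Het and WT were compared with edgeR 4.0.16 (TMM, filterByExpr, quasi-likelihood test, genotype as the only term), with Benjamini-Hochberg adjustment over all genes of a class. DESeq2 1.42.0 was an alternative. Classes, and the log2 ratio of Grin2a to Grin2b with 0.5 added to each count, were compared by exact permutation tests over animals. The comparison of all excitatory with all inhibitory nuclei, and the alternatives for the ratio in inhibitory and L6 CT-like nuclei and for the interaction with sex, were chosen after the data were seen. Genes named are the 6 subunits, the pathway genes called in any class, and for each subunit the 3 genes with the most similar levels over the classes among those reaching 20 CPM in a class. Lin7a, Neto1 and the pathway genes given as examples of a list were chosen outside this rule. The subunits and the lists were chosen with earlier results of these data known. Tested on simulated data for L6 CT-like nuclei (8589 genes), the edgeR script recovered 90% of genes changed by 1 and 38% of those changed by 0.5 on the log2 scale, with 6 false calls. For all excitatory nuclei (13866 genes) it recovered 90% and 65% with 1 false call, and for Pvalb-like nuclei (5750 genes) 90% and 48% with 8 false calls. Alternatives were the scaling, the filter, DESeq2, the limits on nuclei, doublet removal, stricter classes, sex or a replicate block as a term, and leaving out each animal. Floors for counts of 0 cover counting error only, whereas the intervals of edgeR and of the permutation tests include the spread between animals.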

Additional observations from a re-analysis of the deposited data

Results flagged for a closer look

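In groups of 4 to 10 animals, the highest or lowest animal was set against the gap to its nearest neighbour by Dixon's 95% limit, for the 6 genes and the ratio in the groups the report names. Of 66 groups tested 6 passed, where chance gives about 1 in 20. WT male 2 stood apart in inhibitory nuclei, with the highest Grin1 of the WT animals at 352 CPM (next 263). It also had the lowest log2 ratio of Grin2a to Grin2b there, at -0.43 (next -0.16). Of its 814 inhibitory nuclei 240 were Immature GABA-like (29.5%), the highest share of any animal. In those its Grin1 was at 509 CPM and its log2 ratio at -0.63. The part of this make-up in the pooled values was not tested. Het male 3 had the lowest Grin3a of the Het animals in inhibitory nuclei at 113 CPM (next 160). Het female 1 had the highest log2 ratio of the Het animals in DG-like nuclei at 1.25 (next 0.91) and the lowest in Pvalb-like nuclei at -0.95 (next -0.73). Het female 3 had the lowest log2 ratio of the Het animals in Immature GABA-like nuclei at -1.62 (next -0.75).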

How the results depend on the processing

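The count of subunits called between genotypes was 0 in the reported fit and under every alternative run except 2, no filter on low counts and no doublet removal, where it was 1 (Grin3a in L6 CT-like nuclei). The interaction with sex and the ratio by class gave 0 calls under every alternative run. The pathway genes called over classes and pooled nuclei, 1 in the reported fit, were 2 with DESeq2, 5 without the filter and 2 without the upper limits on nuclei. Leaving out 1 animal gave 0 to 4, with 0 without each of the 8 animals named beside Ephb2, 4 without WT male 2, 3 without WT female 1 and 2 without Het female 2. Of the 96 neighbouring pairs of classes 18 differed, against 9 of 84 with stricter classes, 24 of 90 without the upper limits and 10 to 19 with 1 animal left out, 10 without WT male 2 and 11 without Het male 2 or Het female 1.

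The ratio difference in excitatory nuclei, 0.00411, ran from -0.0145 to 0.0349 with 1 animal left out, and changed sign in 6 of those 12 fits. Grin2d turned to 0.0167 without the filter and 0.0644 without doublet removal in excitatory nuclei, with -0.0791 to 0.104 when 1 animal was left out. In inhibitory nuclei it turned to 0.00144 without the filter and 0.109 with stricter classes, with -0.0901 to 0.044 when 1 animal was left out. Grin1 in inhibitory nuclei ran from -0.0115 to 0.131 with 1 animal left out. The cause of these shifts was not tested. Of 1291 values of a subunit in a class under alternatives, 93 changed sign, and 28 of the 66 pairs of subunit and class did so under at least 1 alternative.

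The labels number the animals within sex. The deviations of same-numbered WT and Het animals had r from -0.21 to 0.15 over 8662 genes. Without values for differently numbered animals, this cannot show whether the numbers mark pairs. With the replicate block the ratio difference stayed 0.00411 (exact permutation test, p = 0.969) and 0 subunits were called. DESeq2 gave no adjusted p for Grin3a in L6 CT-like nuclei. Several alternatives could not be fitted in astrocyte-like and vascular-like nuclei, nor stricter classes in DG-like nuclei, for want of animals. Astrocyte-like and OPC-like values rest on few nuclei (162 and 582), which limits what could be detected there.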
